A study of Mus musculus with 10 samples.

Results

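The complement genes described here are 34 genes of the blood-borne defence cascade, its regulators and its receptors, chosen by gene symbol from 35 listed names out of 19764 genes in the liver count table. The listed gene Cfd matched no row and is not analysed here. All 34 passed the filter on low counts, which left 12558 genes for testing. The list was split by the cell type known to make most of each gene's RNA in liver, as background knowledge: 5 genes are macrophage-made (C1qa, C1qb, C1qc, Cfp, Fcna), 24 are hepatocyte-made, and 5 are cell-surface regulators and receptors of mixed origin.

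Polyadenylated RNA of whole liver was sequenced from female mice in 2 groups of 5 libraries. GRMAC mice carried GRflox, a glucocorticoid receptor gene flanked by loxP sites, together with 1 copy of LysM-Cre, which removes it in macrophages and other myeloid cells. The GRflox group held littermates with the floxed gene and no Cre. All mice were fasted for 8 h from ZT12, the start of the dark, active phase, so no fed group and no group with Cre but without the floxed gene was compared. What the Cre transgene does by itself and what loss of the receptor does cannot be told apart. Age is not given in the sources used here, and the labels number the libraries without saying that each is a separate animal, so p-values measure the spread between these libraries.

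Complement is activated along 3 routes that converge on C3. The classical route starts when C1q, carried with the proteases C1r and C1s, binds antibody or dying cells, the lectin route starts when mannose-binding lectins or ficolins bind sugars and activate the MASP proteases, and the alternative route is amplified on surfaces by factor B and stabilised by properdin. Cleavage of C5 then starts assembly of the membrane attack complex. Hepatocytes secrete most plasma complement proteins and raise many of them in the acute phase response, whereas C1q is made mainly by macrophages, in the liver by the resident Kupffer cells. Glucocorticoids act on both cell types.

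Library totals ranged from 23258884 to 27692528 counts and were lower in GRMAC (exact permutation test, p = 0.0159), so levels are given as CPM, counts scaled to a common library size with TMM factors (trimmed mean of M values). The targeted gene Nr3c1 was at 72.8 ± 7.14 in GRflox and 82.5 ± 7.75 CPM in GRMAC (SD, n = 5). A count over the whole gene in whole liver does not check its deletion in macrophages. Hepatocyte markers were high in every library: the summed level of 8 hepatocyte markers was 114153 to 133215 CPM in GRflox and 112682 to 136213 CPM in GRMAC.

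No complement gene differed between the genotypes past an adjusted p of 0.05 in edgeR's quasi-likelihood test over all tested genes, the threshold used throughout, where 0.175% of all tested genes did (0.119% higher in GRMAC and 0.0557% lower). At an unadjusted p under 0.05 there were 7 of 34 (5 higher in GRMAC, 2 lower), or 20.6%, against 16.3% of all tested genes (8.58% higher and 7.75% lower). The share of the members is near the background. Limma-voom passed 0 members as well, and so did edgeR with the replicate number as a block, which called 0.645% of all genes (0.35% higher). DESeq2 refitted to the same counts passed 2, Masp1 and C4bp, as did the authors' deposited table, both higher in GRMAC, where 3.33% of all genes passed in both (1.84% higher in the authors' deposited table). The refit and the authors' table hold the same values for both genes, so they are not separate support. Masp1 and C4bp were also the members whose GRMAC libraries all lay above all GRflox libraries. That separation was seen in 4.05% of all tested genes in either direction and in 2.05% in this one. Of the 24 hepatocyte-made genes, 19 had a positive log2 fold change (GRMAC over GRflox) with a median of 0.05, and of the 5 macrophage-made genes 1 was positive with a median of −0.06. Over all tested genes 50.2% were positive and the median was 0.00.

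**Figure D1:**
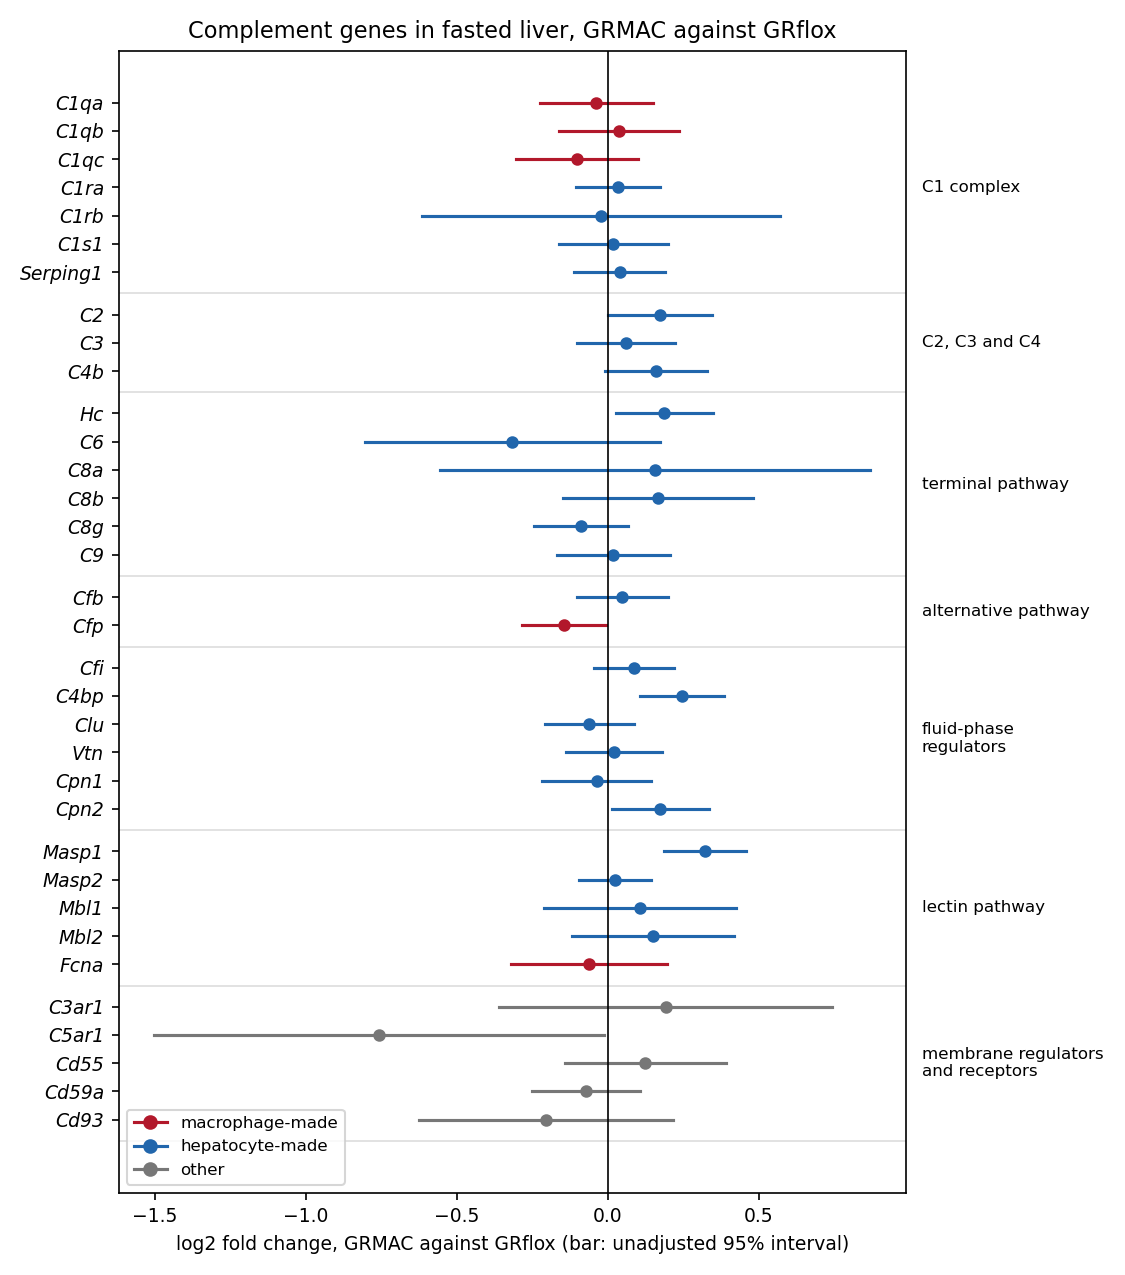
Log2 fold change (x axis) of each complement gene (y axis, by role), GRMAC against GRflox, 5 libraries each, with its unadjusted 95% interval as a bar and the maker cell type as colour. Most points lie within 0.2 of 0, Masp1 (0.32) and C4bp (0.25) lie highest, and C5ar1 (−0.76) has the widest interval.

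Levels between genes were compared per exonic kilobase, as CPM per kb. C3, the hub of the cascade, was the most abundant member at 1988 CPM per kb in GRflox and 2074 in GRMAC. It held 44.9% to 50.4% of all counts of complement genes in the GRflox libraries and 44.2% to 50.2% in the GRMAC libraries. Vtn, which encodes vitronectin, a terminal pathway inhibitor, came next in GRflox at 1147 CPM per kb, followed by Clu (clusterin, another terminal inhibitor) at 731, Cfb (factor B) at 493 and Serping1 (C1 inhibitor) at 405. The spreads of Cfi (283), Mbl2 (278) and C8g (274) overlapped, so their order is not resolved. The macrophage-made genes lay lower than these, at 29.3 for C1qa, 24.9 for Fcna, 24.5 for C1qb, 21.5 for C1qc and 15.4 for Cfp. A low level was not particular to them, as the hepatocyte-made Masp1 (16.6), C6 (11.6) and C1rb (0.171) lay in or under that range. The receptors Cd93, C3ar1 and C5ar1 were at 0.670, 0.480 and 0.414 CPM per kb. All 34 genes together took 2.001% to 2.22% of counts in GRflox and 2.09% to 2.37% in GRMAC.

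**Figure D2:**
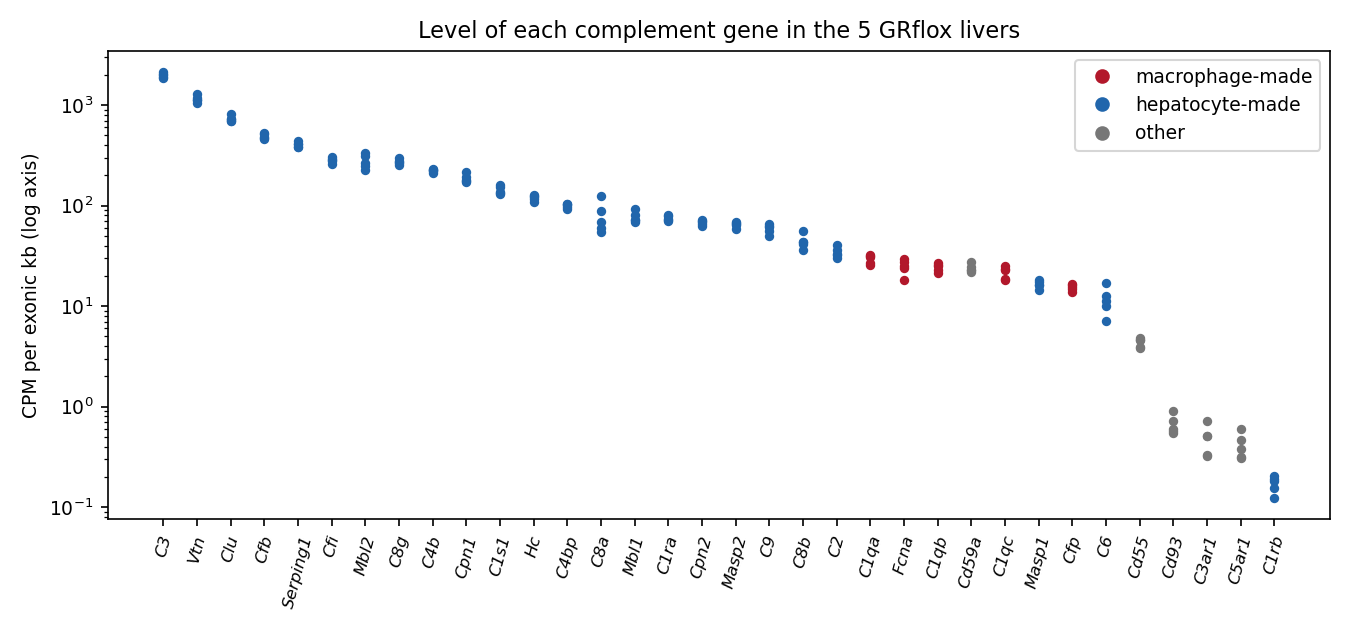
CPM per exonic kilobase (log y axis) of each complement gene in the 5 GRflox libraries, 1 point per library, coloured by the cell type that makes it. C3 lies near 1988 and the macrophage-made genes between 15.4 and 29.3.

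The 3 chains of C1q, the recognition molecule of the classical pathway, are encoded side by side on chromosome 4 (mm10; C1qb at 136880145 to 136886177, C1qc at 136889802 to 136892914, C1qa at 136895916 to 136898844). C1qa was at 33.6, 32.7, 26.5, 31.8 and 27.8 CPM in GRflox 1 to 5 and at 31.9, 28.7, 27.3, 34.2 and 26.5 CPM in GRMAC 1 to 5. C1qb was at 29.3, 28.1, 23.3, 27.4 and 25.2 CPM in GRflox and at 27.9, 28.1, 22.6, 32.4 and 25.7 CPM in GRMAC. C1qc was at 28.0, 30.1, 22.2, 27.3 and 21.7 CPM in GRflox and at 23.7, 25.4, 23.8, 26.0 and 21.6 CPM in GRMAC. The groups overlapped for each chain, GRMAC 4 held the highest value of its group for all 3, and GRflox 3 and 5 held the lowest in theirs. The log2 fold changes were −0.04 ± 0.09 (SE) for C1qa, 0.04 ± 0.09 for C1qb and −0.10 ± 0.09 for C1qc (adjusted p = 0.869, 0.881 and 0.632, edgeR). The unadjusted 95% interval for C1qa ran from a change of −14.4% to one of 10.9%, that for C1qb from −10.7% to 17.7%, and that for C1qc from −19.1% to 7.16%.

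Ratios between the chains were taken in each library. Per kilobase, C1qa stood to C1qb at 1.16 to 1.22 in GRflox and at 1.07 to 1.26 in GRMAC. C1qc stood to C1qb at 0.778 to 0.970 in GRflox and at 0.724 to 0.950 in GRMAC. In whole liver, fewer cells of a type and less RNA per cell cannot be told apart.

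Kupffer cell markers were set beside C1q. Of 12 markers, 9 had positive log2 fold changes and none was at 0 in any library. At an unadjusted p under 0.05 there were 4 higher and 2 lower, 6 of 12, against 16.3% of all tested genes. The list was chosen with earlier results of these data known, so this share does not test the list. EdgeR called 1 (Cd163) and DESeq2 called 3 (Cd163, Cd207 and Cd5l), where 0.175% and 3.33% of all genes passed. Clec4f, the C-type lectin that defines Kupffer cells, was at 93.4 ± 10.8 in GRflox and 98.0 ± 13.3 CPM in GRMAC (log2 fold change 0.07 ± 0.10). Summed C1q stood to Clec4f at 0.796 to 0.949 in GRflox and at 0.770 to 0.878 in GRMAC, ranges that overlap. C1q was not scaled to the markers with larger rises, given below. Cd163, a scavenger receptor of the same cells, fell from 28.8 ± 7.81 to 3.07 ± 0.493 CPM (−3.22 ± 0.19, adjusted p = 2.55e-05, edgeR). Its level per summed C1q was 0.2498 to 0.443 in GRflox and 0.0315 to 0.0459 in GRMAC, with no overlap. Cd207, the lectin langerin, was at 4.46 ± 1.78 in GRflox and 1.18 ± 0.546 CPM in GRMAC with no overlap (−1.91 ± 0.34, adjusted p = 0.0543, edgeR), and the authors' deposited table called it lower (adjusted p = 4e-06). Marco, a scavenger receptor, was at 7.02 ± 3.95 and 3.89 ± 1.83 CPM (−0.85 ± 0.40, adjusted p = 0.327, edgeR). Cd5l, a secreted macrophage protein, was at 46.2 ± 7.27 and 67.9 ± 12.5 CPM with no overlap (0.55 ± 0.13, adjusted p = 0.0928, edgeR), and the authors' deposited table called it higher (adjusted p = 0.0056). For the remaining markers that table gave log2 fold changes of 0.42 for Cd68, 0.41 for Folr2, 0.35 for Slc40a1 and 0.23 for Adgre1. It gave 0.16 for Csf1r, 0.11 for Timd4 and 0.08 for Vsig4, and none of these remaining markers passed there. All 12 markers summed to 379 to 508 in GRflox and 438 to 528 CPM in GRMAC. The summed markers without Cd163 and Cd207 were at 352 to 469 in GRflox and 435 to 524 CPM in GRMAC. Slc40a1 alone made up a large part of this sum. Without it as well, the markers summed to 184 to 250 in GRflox and 225 to 330 CPM in GRMAC. The part of these marker levels in the C1q levels was not tested. Monocyte and recruited macrophage markers summed to 5.48 to 7.16 CPM in GRflox and 6.27 to 7.36 CPM in GRMAC, and neutrophil markers to 0.301 to 1.09 and 0.288 to 1.19 CPM. Plac8 made up most of the monocyte sum, at 3.95 ± 0.497 and 3.94 ± 0.307 CPM. In the same list Ccr2, a monocyte chemokine receptor, was at 0.613 ± 0.0902 and 0.946 ± 0.149 CPM with no overlap (0.62 ± 0.21, adjusted p = 0.178, edgeR), and Itgam, a chain of complement receptor 3, was at 1.36 ± 0.352 and 0.953 ± 0.0431 CPM (−0.52 ± 0.21, adjusted p = 0.231).

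Cfp encodes properdin, which stabilises the alternative pathway convertase (chromosome X, 20925535 to 20931524). It was at 26.4, 25.6, 22.7, 27.3 and 24.3 CPM in GRflox and at 22.7, 23.7, 22.5, 24.0 and 21.3 CPM in GRMAC. GRflox 3 lay within the GRMAC range, and the other GRflox values lay above all GRMAC values. The log2 fold change of −0.14 ± 0.06 had an unadjusted p of 0.0439 and did not pass (adjusted p = 0.291, edgeR). Fcna encodes ficolin A, a sugar-binding starter of the lectin pathway (chromosome 2, 25624667 to 25627974). It was at 32.7, 38.2, 25.2, 34.6 and 40.7 CPM in GRflox and at 39.6, 30.0, 32.5, 31.2 and 31.0 CPM in GRMAC, with overlapping groups (−0.06 ± 0.12, adjusted p = 0.837, edgeR). Summed over the 5 macrophage-made genes, the libraries were at 120 to 155 in GRflox and 126 to 148 CPM in GRMAC.

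**Figure D3:**
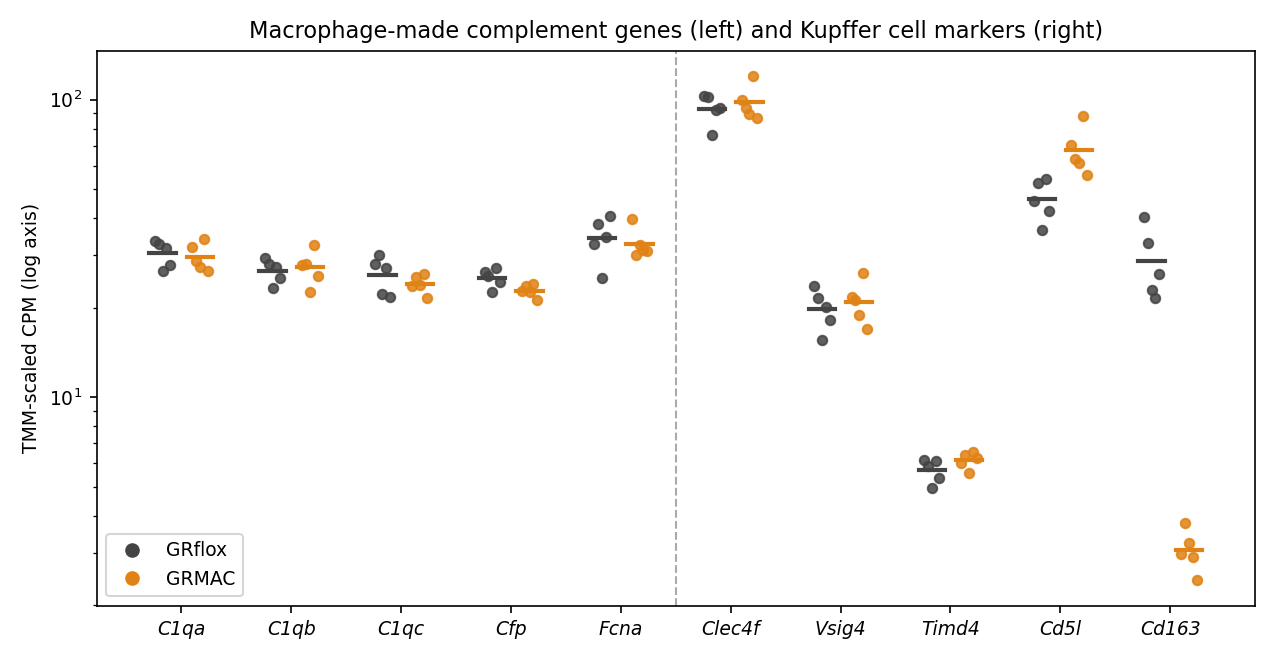
TMM-scaled CPM (log y axis) per library of the 5 macrophage-made complement genes, left of the dashed line, and of 5 Kupffer cell markers, right of it, with the group mean as a bar. The complement genes overlap between genotypes, while Cd163 falls from a mean of 28.8 to 3.07 CPM and Cd5l is at 36.4 to 54.0 in GRflox and 56.0 to 88.2 CPM in GRMAC.

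Promoter sequence was examined for macrophage-made and hepatocyte-made members, as a description only. RefSeq (GRCm38.p6) promoters were matched for 25 of the 34 genes, and the 250 bases before the annotated start were searched on both strands for 4 motifs. C1qa and Masp1 were among the genes without a promoter sequence here. The shared core GAGGAAG of PU.1, the master transcription factor of macrophages, was found in 2 of 4 macrophage-made and 0 of 17 hepatocyte-made promoters, and in 10.6% of all 32851 promoters. TTGCNNAA, a form of the site of the C/EBP factors of the acute phase, was found in 0 of 4 and 5 of 17 (9.56% of all promoters). TTCNNNGAA, the site of STAT factors, was found in 0 of 4 and 4 of 17 (7.02%). The palindromic glucocorticoid response element was in 0 of 25 (0.387%), which says only that these letters are not in these windows. Given 5′ to 3′ are the 2 macrophage-made promoters with a PU.1 core (chr4:136892915-136893164, minus strand for C1qc; chr2:25627975-25628224, minus strand for Fcna), that of C3 (chr17:57228137-57228386, minus strand), and that of C4bp (chr1:130661619-130661868, minus strand), 1 of the 2 genes called higher in the authors' deposited table. Capitals mark PU.1 core matches in C1qc and Fcna, where 2 of the 3 matches of Fcna overlap, and the C/EBP match in C3, while C4bp had no match to any of the 4.
C1qc: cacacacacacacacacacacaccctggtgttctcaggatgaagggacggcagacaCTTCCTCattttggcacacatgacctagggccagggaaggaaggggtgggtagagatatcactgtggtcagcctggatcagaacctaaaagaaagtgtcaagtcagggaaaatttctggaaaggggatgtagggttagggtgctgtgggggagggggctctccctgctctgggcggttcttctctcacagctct
Fcna: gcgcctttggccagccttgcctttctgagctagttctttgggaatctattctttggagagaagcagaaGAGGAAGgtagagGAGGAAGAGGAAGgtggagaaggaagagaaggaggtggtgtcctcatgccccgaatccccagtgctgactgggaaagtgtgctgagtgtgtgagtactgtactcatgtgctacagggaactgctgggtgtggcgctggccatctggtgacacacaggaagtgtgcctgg
C3: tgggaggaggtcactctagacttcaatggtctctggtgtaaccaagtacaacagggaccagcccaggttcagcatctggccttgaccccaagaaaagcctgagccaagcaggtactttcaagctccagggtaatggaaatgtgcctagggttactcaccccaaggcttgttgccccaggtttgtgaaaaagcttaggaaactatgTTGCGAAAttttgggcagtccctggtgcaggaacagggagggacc
C4bp: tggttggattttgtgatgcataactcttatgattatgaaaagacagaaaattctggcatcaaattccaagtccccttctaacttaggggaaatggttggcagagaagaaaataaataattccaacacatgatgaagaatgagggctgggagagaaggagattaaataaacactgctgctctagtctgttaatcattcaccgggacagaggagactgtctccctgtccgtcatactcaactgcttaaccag

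The proteases carried by C1q and their inhibitor are hepatocyte-made. C1ra, of the protease C1r, was at 223 ± 13.0 in GRflox and 229 ± 16.4 CPM in GRMAC (log2 fold change 0.03 ± 0.07). C1s1, of the protease C1s, was at 416 ± 37.8 and 421 ± 43.5 CPM (0.02 ± 0.08), and Serping1 at 716 ± 42.3 and 736 ± 56.1 CPM (0.04 ± 0.07). Per kilobase, C1s1 stood to C1ra at 1.81 to 1.99 in GRflox and 1.77 to 2.05 in GRMAC. None of the 7 genes of the C1 complex had an unadjusted p under 0.05. C1rb, a near copy of C1ra, had 7 to 13 counts per library. Of its transcript's windows of 50 bases, 59.2% also occur in C1ra, and 48.0% of those of C1ra occur in C1rb, so the split between the copies is uncertain. C1s1 shares 39.5% of its windows with other genes, and 24.6% with C1s2, so its count and its ratio to C1ra are uncertain too.

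Masp1, which encodes a protease of the lectin pathway that also serves the alternative pathway (NM_008555, chromosome 16, 23451785 to 23520590), had the lowest p of all members. It was at 86.5, 92.7, 77.9, 97.7 and 87.6 CPM in GRflox and at 106, 112, 116, 106 and 113 CPM in GRMAC. All GRMAC libraries lay above all GRflox libraries, and the means were 88.5 ± 7.41 and 111 ± 4.42 CPM (SD, n = 5). The log2 fold change was 0.32 ± 0.06 with an adjusted p of 0.0622 by edgeR, and the adjusted p in the authors' deposited table was 0.00073 at the same 0.32. Without GRflox 4, the library with the highest GRflox value, edgeR gave 0.36 with an adjusted p of 0.0435. Leaving out any other library gave 0.28 to 0.34 with an adjusted p of 0.084 to 0.118, which did not pass. Over the 21 settings tried, the adjusted p ran from 0.00073 to 0.118. In liver, stellate cells also express Masp1. Of 5 measured markers of stellate cells and fibroblasts 4 were positive (median 0.16, none past the threshold), summing to 168 to 214 CPM in GRflox and 172 to 237 CPM in GRMAC, and their part in the Masp1 level was not tested.

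The other lectin pathway genes had smaller log2 fold changes than Masp1. Masp2, the protease that cleaves C4 and C2, was at 198 ± 11.2 in GRflox and 201 ± 4.64 CPM in GRMAC (0.02 ± 0.06). Mbl1 and Mbl2 encode the mannose-binding lectins. Mbl1 was at 121 ± 14.9 and 130 ± 30.8 CPM (0.11 ± 0.14), and Mbl2 at 302 ± 48.0 and 335 ± 50.9 CPM (0.15 ± 0.12). The difference between Masp1 and these genes was not tested. Of Masp2's windows of 50 bases, 57.2% occur in annotated transcripts of Tardbp, so its count is uncertain.

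C4bp encodes the C4b-binding protein, which lets factor I inactivate C4b (NM_007576, chromosome 1, 130635921 to 130661618). It was at 281, 315, 308, 293 and 317 CPM in GRflox and at 329, 393, 367, 339 and 368 CPM in GRMAC. The groups did not overlap, and the means were 303 ± 15.4 and 359 ± 25.7 CPM. The log2 fold change was 0.25 ± 0.07 with an adjusted p of 0.104 by edgeR and of 0.0113 in the authors' deposited table. With GC content and length corrected for it was 0.16 (adjusted p = 0.28). Among the other fluid-phase regulators Cpn2, a subunit of carboxypeptidase N, which trims anaphylatoxins, was at 310 ± 16.5 and 349 ± 35.6 CPM (0.17 ± 0.07, unadjusted p = 0.036, adjusted p = 0.27). Cpn1, its catalytic partner, was at 343 ± 34.2 and 334 ± 34.1 CPM (−0.04 ± 0.08). Cfi (factor I) was at 0.09 ± 0.06 on the log2 scale, Clu at −0.06 ± 0.07 and Vtn at 0.02 ± 0.07.

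C3 was at 9538, 10576, 10259, 9735 and 10947 CPM in GRflox and at 11068, 10341, 10466, 9651 and 11722 CPM in GRMAC. The groups overlapped (log2 fold change 0.06 ± 0.08, adjusted p = 0.741, edgeR), and the unadjusted 95% interval ran from −6.88% to 16.8%. C2, the protease of the classical and lectin C3 convertase, was at 85.2, 88.0, 95.7, 108 and 79.9 CPM in GRflox and at 103, 114, 105, 95.7 and 97.0 CPM in GRMAC. Its groups overlapped only through GRflox 4, and GRflox 3 lay just under the lowest GRMAC library (0.17 ± 0.08, unadjusted p = 0.0494, adjusted p = 0.304). C4b, the partner of C2, was at 1202 ± 41.4 and 1343 ± 153 CPM (0.16 ± 0.08, adjusted p = 0.328), with GRMAC 2 highest at 1602 CPM. Cfb, the counterpart of C2 in the alternative pathway, was at 1351 ± 71.7 and 1397 ± 103 CPM (0.05 ± 0.07). C2, Cfb and C4b lie together on chromosome 17 (34728381 to 34882100). Their counts share sequence with other annotated genes: 35.2% of the windows of C4b occur in C4a, and 58.0% of those of C2 and 81.8% of those of Cfb in Gm20547.

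**Figure D4:**
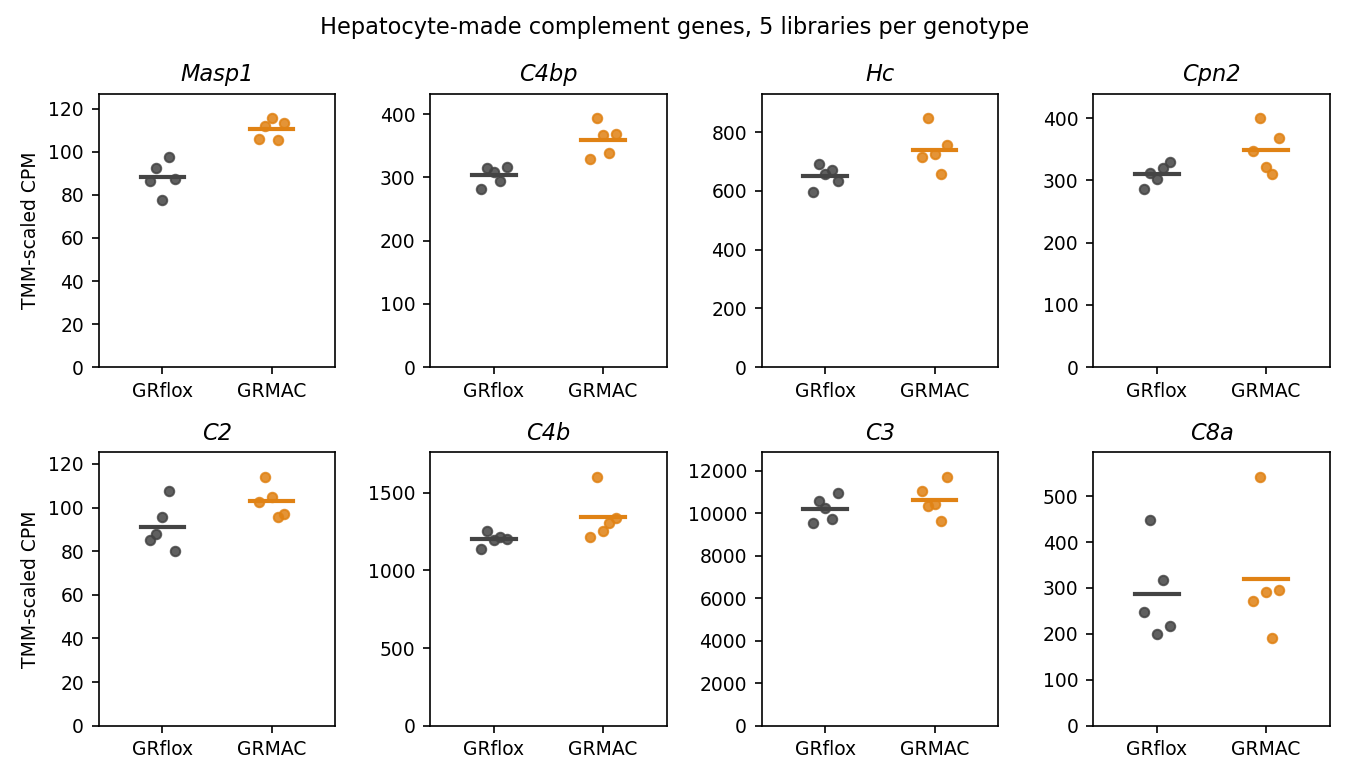
TMM-scaled CPM per library (y axis from 0) of 8 hepatocyte-made complement genes in GRflox and GRMAC, with the group mean as a bar. Masp1 and C4bp do not overlap between genotypes, the other 6 do, and C8a spreads from 191 to 542 CPM.

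Among terminal pathway genes C8a and C6 varied most between libraries. Hc, which encodes C5 (chromosome 2, 34983331 to 35061441), was at 596, 692, 658, 672 and 633 CPM in GRflox and at 714, 847, 726, 657 and 755 CPM in GRMAC. GRMAC 4 lay within the GRflox range and the other GRMAC values lay above it (0.19 ± 0.07, unadjusted p = 0.0261, adjusted p = 0.233, edgeR). C8a, of the alpha chain of C8, was at 248, 448, 199, 318 and 217 CPM in GRflox and at 272, 542, 292, 191 and 296 CPM in GRMAC. Its highest library was 2.25 times its lowest in GRflox and 2.84 times in GRMAC, and the highest in each genotype was number 2. C8b, its neighbour on chromosome 4, was also highest in both number 2 libraries, with 126 (GRflox 2) and 144 CPM (GRMAC 2). C8g, the gamma chain on chromosome 2, varied by 1.18 and 1.30 times and was at 225 ± 14.3 and 212 ± 19.7 CPM. Per kilobase, C8a stood to C8b at 1.46 to 2.19 in GRflox and 1.39 to 2.34 in GRMAC. C6, which follows C5b in the attack complex, was at 36.6, 49.1, 20.3, 32.2 and 28.8 CPM in GRflox and at 25.3, 36.3, 23.7, 24.8 and 24.0 CPM in GRMAC, again highest in number 2 (−0.32 ± 0.22, adjusted p = 0.511). C9, the pore-forming unit, was at 121 ± 12.7 and 122 ± 13.0 CPM (0.02 ± 0.09).

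Across all hepatocyte-made members, GRMAC 2 held the highest value for 13 of 24, and GRflox 1 and GRMAC 4 held the lowest for 8 each. The median deviation from each gene's mean was 0.18 (log2) in GRMAC 2, −0.12 in GRflox 1 and −0.11 in GRMAC 4. The other libraries lay from −0.07 to 0.06. Without GRMAC 2 the median log2 fold change of the hepatocyte-made genes was 0.02, and without GRMAC 4 it was 0.09. GRMAC 2 had the lowest summed level of sinusoidal endothelial markers, 164 CPM against 207 to 267 CPM in the other 9 libraries, and the part of this was not tested. Of the 8 measured hepatocyte markers 7 had a positive log2 fold change, with a median of 0.08.

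**Figure D5:**
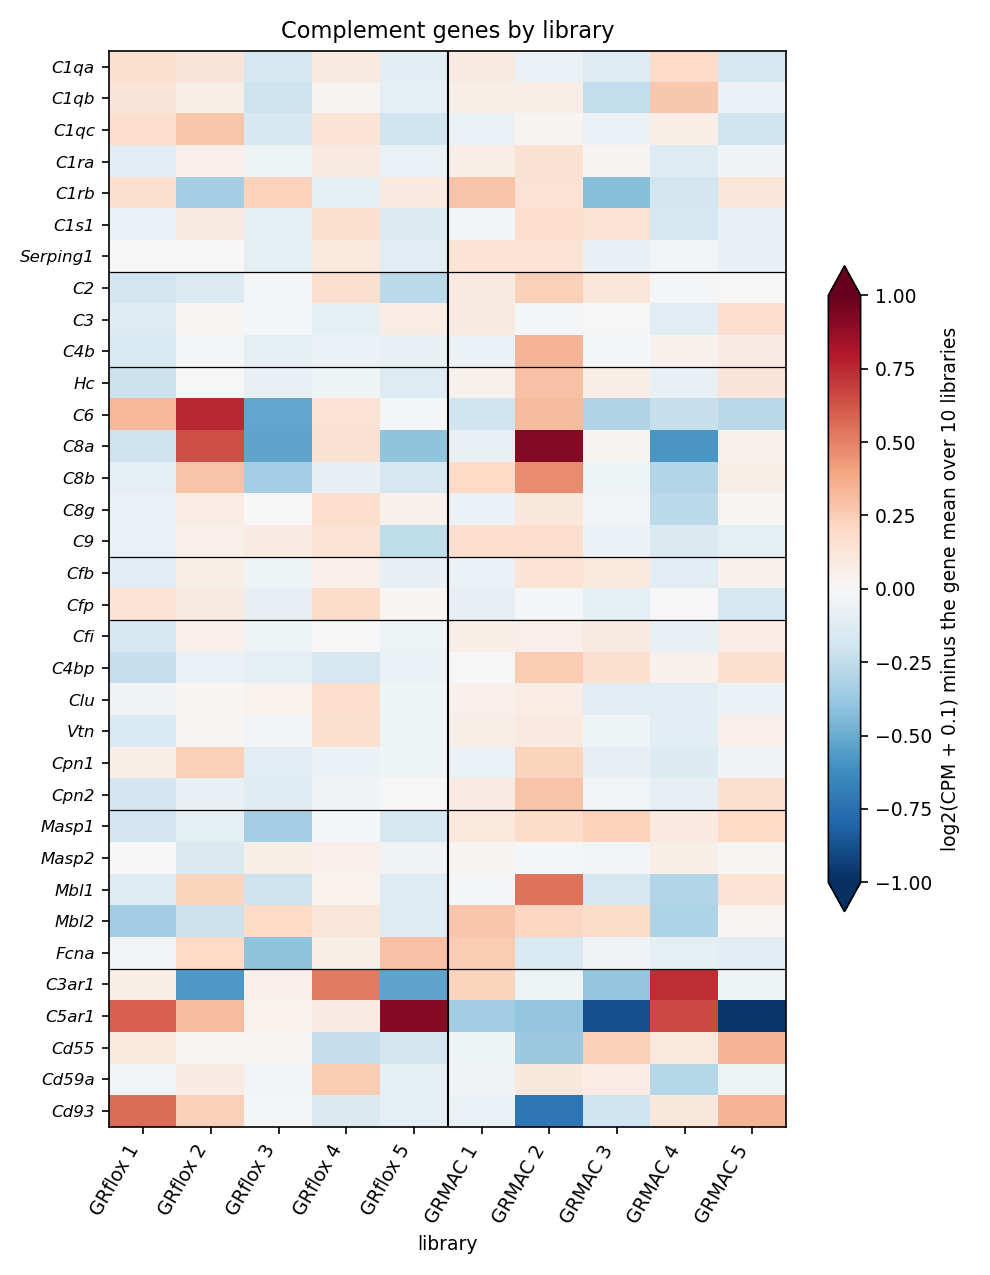
Heat map of log2(CPM + 0.1) minus each gene's mean over 10 libraries (colour) for the 34 complement genes (rows, by role) in the 10 libraries (columns). GRMAC 2 is the reddest column among hepatocyte-made genes, and C6, C8a, C3ar1, C5ar1 and Cd93 vary most between libraries.

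The receptors and Cd55 were at low levels, and Cd59a was at 23.9 CPM per kb in GRflox. C5ar1, the C5a receptor of myeloid cells (chromosome 7, 16246743 to 16259540), had 8 to 40 counts per library. It was at 1.17, 0.940, 0.761, 0.788 and 1.48 CPM in GRflox and at 0.560, 0.539, 0.357, 1.23 and 0.329 CPM in GRMAC. GRMAC 4 lay within the GRflox range and the other GRMAC values lay below it (−0.76 ± 0.35, unadjusted p = 0.047, adjusted p = 0.298, edgeR). Without GRMAC 4 the log2 fold change was −1.20 (adjusted p = 0.106, edgeR), and without any other library it was −0.84 to −0.59 (adjusted p = 0.26 to 0.54). C3ar1, the C3a receptor, was at 2.07 ± 0.692 and 2.36 ± 0.771 CPM (0.19 ± 0.26). Cd93, a receptor found on endothelium, was at 4.48 ± 0.984 and 3.89 ± 1.03 CPM (−0.20 ± 0.20), lowest in GRMAC 2 at 2.42 CPM. Cd55, which speeds the decay of convertases, was at 11.0 ± 1.11 and 12.03 ± 2.21 CPM (0.12 ± 0.12), with 15.5% of its windows in other genes. Cd59a, which blocks the attack complex, was at 43.2 ± 4.26 and 41.1 ± 4.26 CPM (−0.07 ± 0.08).

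Among 28 further genes of the pathway, 26 had a row, 21 passed the filter and none passed the threshold with edgeR, DESeq2 or limma-voom. At an unadjusted p under 0.05 there were 2 higher and 3 lower (23.8% of the 21, against 16.3% of all tested genes, 8.58% higher and 7.75% lower). C7, of the attack complex, had the lowest p, at 2.29 ± 0.573 in GRflox and 1.54 ± 0.157 CPM in GRMAC (−0.57 ± 0.19, adjusted p = 0.165, edgeR). Vsig4, the C3b receptor by which Kupffer cells clear opsonised particles, was at 19.8 ± 3.11 and 20.96 ± 3.47 CPM (0.08 ± 0.13, adjusted p = 0.791). Fcnb had 0 counts in every library, where 3 counts correspond to 0.111 to 0.129 CPM.

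Of 17 genes that control complement transcription in liver, such as those of the IL-6 receptor, STAT and C/EBP factors, none passed the threshold with edgeR or limma-voom, and 3 were higher and 3 lower at an unadjusted p under 0.05 (35.3%, against 16.3% of all tested genes).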

How the data were processed

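The authors deposited whole-number read counts per gene, 1 RefSeq transcript and symbol per row. HISAT2 2.1.0, DESeq2 1.24.0 and mm10 are named per the submitters' processing notes; the counting program, annotation version and strand setting are not given in the sources used here. A second deposited table holds the authors' log2 fold changes and adjusted p-values for the knockout over the control group, per the file headers; its 10 columns of values per library were not used. Control and knockout columns were matched to sample titles by genotype and number.

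Counts were filtered with filterByExpr (0.0348% of counts removed), scaled by TMM and tested with edgeR 4.0.16 (robust quasi-likelihood, R 4.3.3), adjusted by Benjamini-Hochberg over 12558 genes. CPM values are means ± SD, and standard errors come from the fold change and F statistic. Table starts were taken as counted from 0 and are printed counted from 1. Exonic length and GC content came from GENCODE M21 transcripts (99.9% of tested genes). Shared sequence was counted as windows of 50 bases. Counts carry no molecular identifiers, so floors cover counting error only. Scripts were checked on simulated data for this comparison (12558 genes, 200 changed): edgeR recovered 73.6% of genes changed 1.5-fold, 86.2% at 2-fold and 95.2% at 4-fold. Of its calls 5.59% were of unchanged genes, against 13.7% for DESeq2. No change under 1.5-fold was simulated, and the largest rise among the members was 1.25-fold (Masp1), so recovery at that size is not known.

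The members and lists were chosen with earlier results of these data known. Named with values were the macrophage-made genes, C3, members past the threshold with edgeR or in the authors' deposited table, and the lowest p of each role. Other members are given by level and fold change; C8a and C6 were given by library after their values were seen. Alternatives were DESeq2 1.42.0, limma-voom (limma 3.58.1), other scalings and filters, no robust estimation, the replicate number as a block, a correction for GC content and length (splines with 5 degrees of freedom), and leaving out each library. The values of 1 gene of the list of transcription control genes are not reported here.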

Additional observations from a re-analysis of the deposited data

Results flagged for a closer look

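In groups of 5 libraries, a value was picked out when its gap to the nearest other exceeded 0.71 of the group's range. Among 72 groups this happened 5 times, and about 3.6 would do so by chance (1 in 20). C6 was at 36.3 CPM in GRMAC 2, against 23.7 to 25.3 CPM in the other GRMAC libraries. Cpn1 was at 393 CPM in GRMAC 2, against 306 to 328 CPM. Cfi was at 575 CPM in GRMAC 4, against 626 to 644 CPM. C5ar1 was at 1.23 CPM in GRMAC 4, against 0.329 to 0.560 CPM. Fcna was at 39.6 CPM in GRMAC 1, against 30.0 to 32.5 CPM. All 5 are in the GRMAC group.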

How the results depend on the processing

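The number of tested genes past the threshold was 22 and became 424 with DESeq2, 8 with limma-voom, 8 without robust estimation, 8 with the GC and length correction, 34 without a filter, 81 with the replicate number as a block, and 5 to 47 when 1 library was left out. Complement genes past the threshold were 0, became 2 with DESeq2 and 1 (Masp1) with upper-quartile scaling or library totals alone, were 0 with the replicate block, and were 0 to 1 when 1 library was left out. Members higher at an unadjusted p under 0.05 were 5, became 3 with the GC and length correction, and were 2 to 6 when 1 library was left out. Members lower were 2, became 0 with upper-quartile scaling or library totals alone and 1 with a filter on mean CPM (1 or more) or the GC and length correction, and were 0 to 3 when 1 library was left out. The cause was not tested.

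The median log2 fold change was 0.02 to 0.09 for hepatocyte-made and −0.15 to −0.02 for macrophage-made genes when 1 library was left out. The macrophage-made median was −0.01 with the GC and length correction. C1qa changed sign to 0.031 with that correction and to 0.00077 without GRMAC 5 (−0.093 to 0.00077 over the libraries left out). C1qb changed sign to −0.0053 without GRflox 3 and to −0.033 without GRMAC 4 (−0.033 to 0.102), and Fcna to 0.0080 without GRflox 5 (−0.15 to 0.0080). None of these passed the threshold. Of 230 values of 11 named genes under the alternatives, 218 kept their direction and side of the threshold. The DESeq2 refit and the authors' deposited values are both counted there, although they are the same for these genes.

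Deviations of libraries with the same number correlated at −0.11 to 0.17 over the 5 numbers. The labels do not say whether the numbers pair the libraries, and these few correlations cannot settle it. The best match of a library had its own number for 2 GRflox and 2 GRMAC libraries. With the replicate block, which called 0.645% of all tested genes, 2 of the 17 genes that control complement transcription passed. They were Cebpd (−0.50, adjusted p = 0.0329, edgeR) and Socs3 (0.54, adjusted p = 0.0487, edgeR). Without the block their adjusted p was 0.249 and 0.402 (edgeR). Genes with few counts, C1rb and C5ar1 among them, could show large changes only.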
